A study of Mus musculus with 8 samples.

Results

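The response of T cells to ionizing radiation (IR) was compared between tissues by asking, for each gene, how much more or less IR changed its level in tumor T cells than in lymph node (LN) T cells. The quantity is the IR effect in tumor (tumor with IR minus tumor without IR) minus the IR effect in LN (LN with IR minus LN without IR), on the log2 scale, and is called the difference in IR effect below. All 8 arrays of the series enter it, and it was computed for all 18193 genes measured, each read by its brightest probe set among those that name 1 gene. A value below 0 means a smaller rise, or a larger fall, in tumor T cells.

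The cells were CD8+CD44+CD62L- T cells, the antigen-experienced phenotype, sorted from female C57BL/6 mice aged 6-8 weeks that carried subcutaneous MC38 tumors, a mouse colon adenocarcinoma. The 4 groups cross tissue (LN or tumor) with treatment (no IR or IR), where IR was 5 Gy to the whole body given 5 h before the cells were taken. Each group has 2 arrays, and each array holds RNA pooled from 4 mice. The submitters describe 2 independent experiments that each gave 1 pool per group, and the labels do not say that the replicate number is the experiment. LN cells came from inguinal and axillary nodes by mechanical disruption, while tumor cells went through enzymatic digestion, so the tissue and its dissociation cannot be told apart in the levels. *Cd8a*, a chain of the CD8 coreceptor, lay between 12.09 and 12.67 on the 8 arrays, and *Cd44*, the sorting marker, between 11.35 and 12.06. The 22 measured macrophage and monocyte markers had array means of 6.58 to 7.13 in LN and 8.95 to 11.02 in tumor, and the first tumor array with IR was the lowest of the tumor arrays. The 2 LN arrays with IR were the least alike of any group (SD of their difference 0.57 over all genes, against 0.27 in each tumor group). In pooled sorted cells, fewer cells of a type and less RNA per cell cannot be told apart.

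IR breaks DNA, and the kinases that sense the breaks stabilize p53, a transcription factor. p53 then raises genes that halt the cell cycle, genes that promote apoptosis, genes of DNA repair and metabolism, and its own inhibitors. It acts by binding a response element, a pair of short half-sites that can lie close to a gene's start. T cells of lymphoid organs are known for the ease with which they die by this route. T cells that receive signals through their antigen receptor, or that are handled during isolation, raise immediate early genes. Many of their products (the FOS, JUN, EGR and ATF families) are themselves transcription factors.

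Promoter windows of 300 bases (250 before and 50 after the gene's start, RefSeq, GRCm38.p6) were read for a p53 response element of 20 bases with at most 2 differing letters. The element equals its own reverse complement in form, so 1 reading covers both strands. It was found in 6 of the 49 p53 targets with a window (12.2%) and in 65 of 14452 measured genes (0.45%). A match is a description of letters and not a shown site of binding. The following 4 are shown because their genes span the range of the difference in IR effect, from strongly below 0 for *Cdkn1a* to 0 for *Ccng1*. Capitals mark the element, and all lie upstream of the gene's start on the gene's strand.
Cdkn1a: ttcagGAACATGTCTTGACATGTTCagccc
Zfp365: tagcaAGACTAGGCTGGGCAAGACTggcac
Cd80: gctcaGAACAGGCCTGGACAAGTCAcctcc
Ccng1: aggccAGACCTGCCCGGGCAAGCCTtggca
The *Cdkn1a* stretch lies at chr17:29090923-29090952 on the plus strand, its element begins at −51 from the start, and 1 letter differs. The *Zfp365* stretch lies at chr10:67912701-67912730 on the minus strand with its element at −63 and 2 differing letters. The *Cd80* stretch lies at chr16:38458817-38458846 on the plus strand with its element at −111 and 2 differing letters. The *Ccng1* stretch lies at chr11:40755457-40755486 on the minus strand with its element at −195 and 1 differing letter. Among these 4, *Cdkn1a* and *Ccng1* both have an element that differs at 1 letter, as does *Gtse1*, which is not shown, and their differences in IR effect were −1.90, −0.01 and −0.23.

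The verbs rose and fell are kept for IR effects of at least 1 log2 unit with an adjusted p under 0.1 in limma. By that rule 0 of 18193 genes (0%) had a difference in IR effect. At an unadjusted p under 0.05 there were 1024 genes (5.63%), 440 of them below 0 (2.42%) and 584 above 0 (3.21%). The smallest adjusted p of a gene was 0.249, shared by *Tmem35a* and *Crem*. A robust fit, the kind the study's methods name, called 18 genes. The count depended on LN IR replicate 1: without it 776 genes were called, 11 of them p53 targets, and without LN IR replicate 2 there were 2. The median difference over all genes was 0.12 (SD over genes 0.41), and the 95% interval of a gene's difference reached a median of 0.63 to either side. The interval lay wholly within 1 log2 unit of 0 for 11214 genes (61.6%). With arrays scaled to genes of T cell identity, the scaling moved the median of all genes from 0.12 to −0.01, so differences below are read against that median. Counts of list members are likewise read against all genes, of which 6227 (34.2%) lay below 0 and 11966 above it. In LN 0.786% of all genes rose and 0.264% fell, and in tumor 0.0934% rose and 0.0055% fell.

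As a list, the p53 targets had smaller IR effects in tumor T cells. The list was chosen with earlier results of these data known, and the LN effect enters the difference. Its counts below 0 may thus be partly set by that choice and are no test. Of 62 listed genes 58 were measured; 30 rose in LN T cells (background 0.786% of all genes), 9 rose in tumor T cells (background 0.0934%) and 0 fell in either (background 0.264% in LN and 0.0055% in tumor). The median IR effect over the 58 was 1.39 in LN and 0.79 in tumor. The difference in IR effect was below 0 for 48 and above 0 for 10, against 34.2% of all genes below 0, and its median was −0.44. For both replicate numbers 41 lay below 0 (18.2% of all genes) and 6 above 0 (41.4% of all genes). At an unadjusted p under 0.05, 15 lay below 0 and 0 above, and none passed the adjusted test. The list's array means were 8.25 and 8.19 in LN without IR, 9.76 and 9.51 in LN with IR, 8.43 and 8.49 in tumor without IR, and 9.33 and 9.32 in tumor with IR. The groups with IR thus did not overlap, with the LN arrays higher. Without LN IR replicate 1 the count below 0 was 40 and the median −0.29, and without LN IR replicate 2 they were 49 and −0.59. Of all 18193 genes, 6233 and 7551 lay below 0 in these 2 settings. The macrophage markers were lower on the tumor arrays with IR over the same comparison, and their part in this result was not tested. Without tumor IR replicate 1, the tumor array lowest in them, 48 p53 targets lay below 0 with a median of −0.46, against 6783 of all genes.

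Targets that arrest the cell cycle or feed back on p53 had the lowest median difference of the 4 roles, −0.83, and 14 of 16 lay below 0. *Cdkn1a* encodes p21, the cyclin-dependent kinase inhibitor that carries out p53's cell cycle arrest. It stood at 7.91 and 7.89 in LN without IR and at 11.96 and 11.54 with IR, and at 9.60 and 10.45 in tumor without IR and 11.93 and 12.02 with IR. The tumor arrays without IR were already well above those of LN, and the arrays with IR ended within 0.5 of one another in both tissues. Its IR effect was 3.84 in LN and 1.95 in tumor, a difference of −1.90 (95% interval −2.83 to −0.96, adjusted p = 0.66 by limma). *Plk2*, a polo-like kinase of the stress checkpoint, showed the same layout, with 7.40 and 6.96 against 10.77 and 10.26 in LN and 8.85 and 9.04 against 10.21 and 10.19 in tumor. The difference for *Plk2* was −2.07 (95% interval −2.82 to −1.32, adjusted p = 0.431).

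*Phlda3*, which restrains the Akt survival kinase, rose in both tissues and crossed over. In LN it stood at 6.95 and 6.68 without IR and 10.91 and 10.97 with IR, and in tumor at 8.18 and 7.78 and then 10.32 and 10.22. Higher in tumor T cells before IR, it was lower there after IR, with a difference of −1.83 (95% interval −2.44 to −1.22, adjusted p = 0.328). *Sesn2*, a sestrin that holds back mTORC1 under stress, began level in both tissues (8.29 and 8.02 in LN, 8.14 and 8.29 in tumor) and reached 11.36 and 10.99 in LN but only 9.73 and 9.68 in tumor. The tumor and LN arrays with IR did not overlap, and the difference was −1.54 (95% interval −2.14 to −0.93). *Psrc1*, a spindle protein, also rose in both tissues from like levels, by 3.54 in LN and 2.34 in tumor (difference −1.19, −1.75 to −0.64).

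The feedback genes lay between. *Mdm2*, the ligase that marks p53 for destruction, rose by 1.72 in LN and stood 0.91 higher with IR in tumor, where it did not pass (difference −0.80, −1.34 to −0.27). *Ppm1d*, the phosphatase that switches damage signaling off, had a difference of −0.75 (−1.35 to −0.16), and *Zmat3*, an RNA-binding protein, one of −0.85 (−1.41 to −0.29). *Pvt1*, a long noncoding RNA beside *Myc*, had −1.14 (−1.96 to −0.31). *Btg2*, an antiproliferative protein, gave −1.24 with an interval that ran from −3.15 to 0.67, because its LN replicates lay more than 1 log2 unit apart.

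Not every target of this role behaved alike. *Ccng1*, which encodes cyclin G1, rose in both tissues by almost the same amount. It stood at 11.73 and 11.80 in LN without IR and 13.24 and 13.28 with IR, and at 11.69 and 11.53 and then 13.13 and 13.06 in tumor. The difference was −0.01 with a 95% interval of −0.47 to 0.45, so a tissue difference larger than about 0.5 lies outside the interval of this probe set. Dimmer probe sets of *Ccng1* gave −0.19 and −0.37, with larger IR effects in both tissues (1.96 and 2.63 in LN, 1.77 and 2.26 in tumor). *Trp53inp1*, a stress-induced partner of p53, had a positive difference of 0.43 (−0.31 to 1.16), and its level stayed lower in tumor with and without IR. Its dimmer probe set gave a difference of 0.01. *Gtse1*, a G2/M protein that restrains p53, had −0.23 with a wide interval of −1.20 to 0.75.

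**Figure D1:**
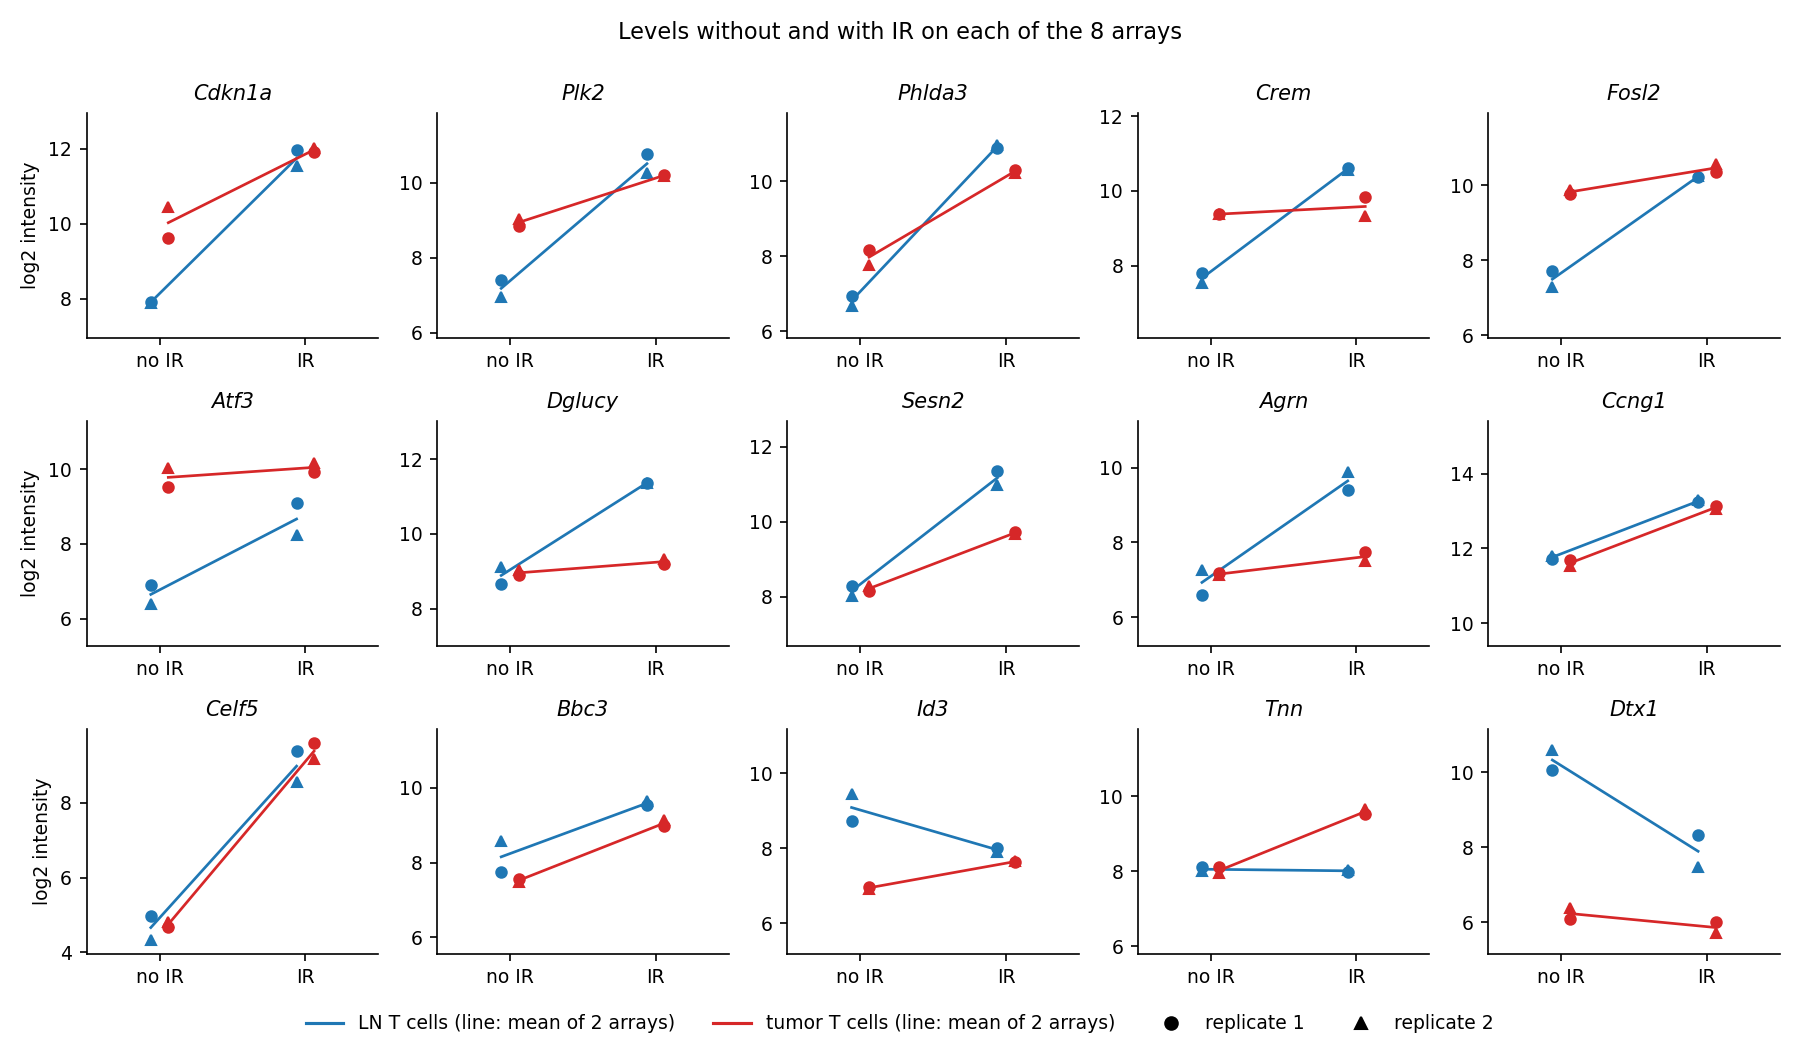
Levels of 15 genes on the 8 arrays (vertical axis log2 intensity, 6 units high in every panel; horizontal axis without or with IR; blue LN, red tumor; circle replicate 1, triangle replicate 2; line joins the group means). *Cdkn1a*, *Plk2*, *Crem*, *Fosl2* and *Atf3* begin higher in tumor and have flatter tumor lines, *Dglucy*, *Sesn2* and *Agrn* begin level and part after IR, *Ccng1*, *Celf5* and *Bbc3* run nearly parallel, and *Id3*, *Tnn* and *Dtx1* have differences above 0.

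Death genes differed less. Of 12 measured, 8 rose in LN and 1, *Ei24*, in tumor, and 10 lay below 0 with a median difference of −0.39. *Apaf1*, the scaffold of the apoptosome, stood at 9.52 and 9.14 in LN without IR and 11.30 and 11.51 with IR, and at 9.51 and 9.58 and then 10.45 and 10.27 in tumor. The tissues began together and parted after IR, with a difference of −1.27 (95% interval −1.86 to −0.67, adjusted p = 0.642). *Ei24*, a membrane protein of the apoptotic response, had −0.65 (−1.10 to −0.19). *Pmaip1* and *Bbc3* encode Noxa and Puma, BH3-only proteins that set off mitochondrial apoptosis. *Pmaip1* had a difference of −0.67 (−1.44 to 0.11). *Bbc3* stood at 7.74 and 8.57 in LN without IR and 9.53 and 9.64 with IR, and at 7.55 and 7.49 and then 8.97 and 9.13 in tumor. Its difference was 0.10 (−0.77 to 0.96), and the sign turned to −0.035 when arrays were scaled to T cell identity genes. The death receptors *Fas* and *Tnfrsf10b*, the latter a TRAIL receptor, gave −0.37 (−0.98 to 0.24) and −0.44 (−0.96 to 0.08). *Fas* was lower in tumor than in LN both without IR (−1.35) and with IR (−1.72). *Aen*, an apoptosis-enhancing nuclease, had −0.42 (−1.0 to 0.16) and *Pidd1*, the platform of the PIDDosome, had −0.27 (−0.78 to 0.25). For these 4 the interval reached past 0, which does not show that the tissues respond alike. Dimmer probe sets of *Aen* gave −0.52, −0.31 and −1.45.

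Repair and metabolism genes had the smallest median difference of the 4 roles, −0.18, with 12 of 17 below 0. Here 5 rose in LN and 2 in tumor. *Polk*, a translesion DNA polymerase, gave −1.76 (95% interval −2.64 to −0.88): 8.31 and 7.89 became 10.34 and 10.96 in LN, while 9.02 and 9.01 became 10.02 and 9.58 in tumor. The tumor arrays were the higher before IR and the lower after it. *Dcxr*, a xylulose reductase, and *Slc19a2*, a thiamine transporter, rose in both tissues and had differences of −0.82 (−1.78 to 0.15) and −0.65 (−1.47 to 0.17). *Zfp365*, a protein of damaged replication forks, rose by 4.07 in LN, where the arrays without IR were 6.31 and 8.25, so that its difference of −1.08 ran from −2.85 to 0.69. *Ddit4*, an inhibitor of mTORC1, had −0.18 (−0.87 to 0.51).

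Among the other targets, 5 of 13 rose in LN, 1 in tumor, and 12 lay below 0 (median −0.71). *Dglucy*, a D-glutamate cyclase of mitochondria, had the lowest difference of all p53 targets. It stood at 8.66 and 9.13 in LN and 8.90 and 9.03 in tumor without IR, and at 11.36 and 11.38 in LN and 9.19 and 9.34 in tumor with IR. The tissues began together and only the LN arrays moved clear of the others (difference −2.17, 95% interval −2.79 to −1.55, adjusted p = 0.316). *Mgmt*, which removes alkyl groups from guanine, had the same layout at lower levels, with an IR effect of 1.41 in LN and 0.25 in tumor (difference −1.16, −1.69 to −0.64). *Abhd4*, a lipase of N-acyl phospholipids, gave −1.14 (−2.29 to 0.01) and *Cd80*, the costimulatory ligand, −0.72 (−1.97 to 0.52). At the other end, *Celf5*, an RNA-binding protein, went from 4.99 and 4.34 to 9.39 and 8.56 in LN and from 4.68 and 4.82 to 9.59 and 9.16 in tumor. Its levels without IR were below the arrays' lower quartiles (5.38 to 5.59), so its rises have no exact size, and the difference of 0.31 (−0.78 to 1.41) was the only positive one of this role.

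**Figure D2:**
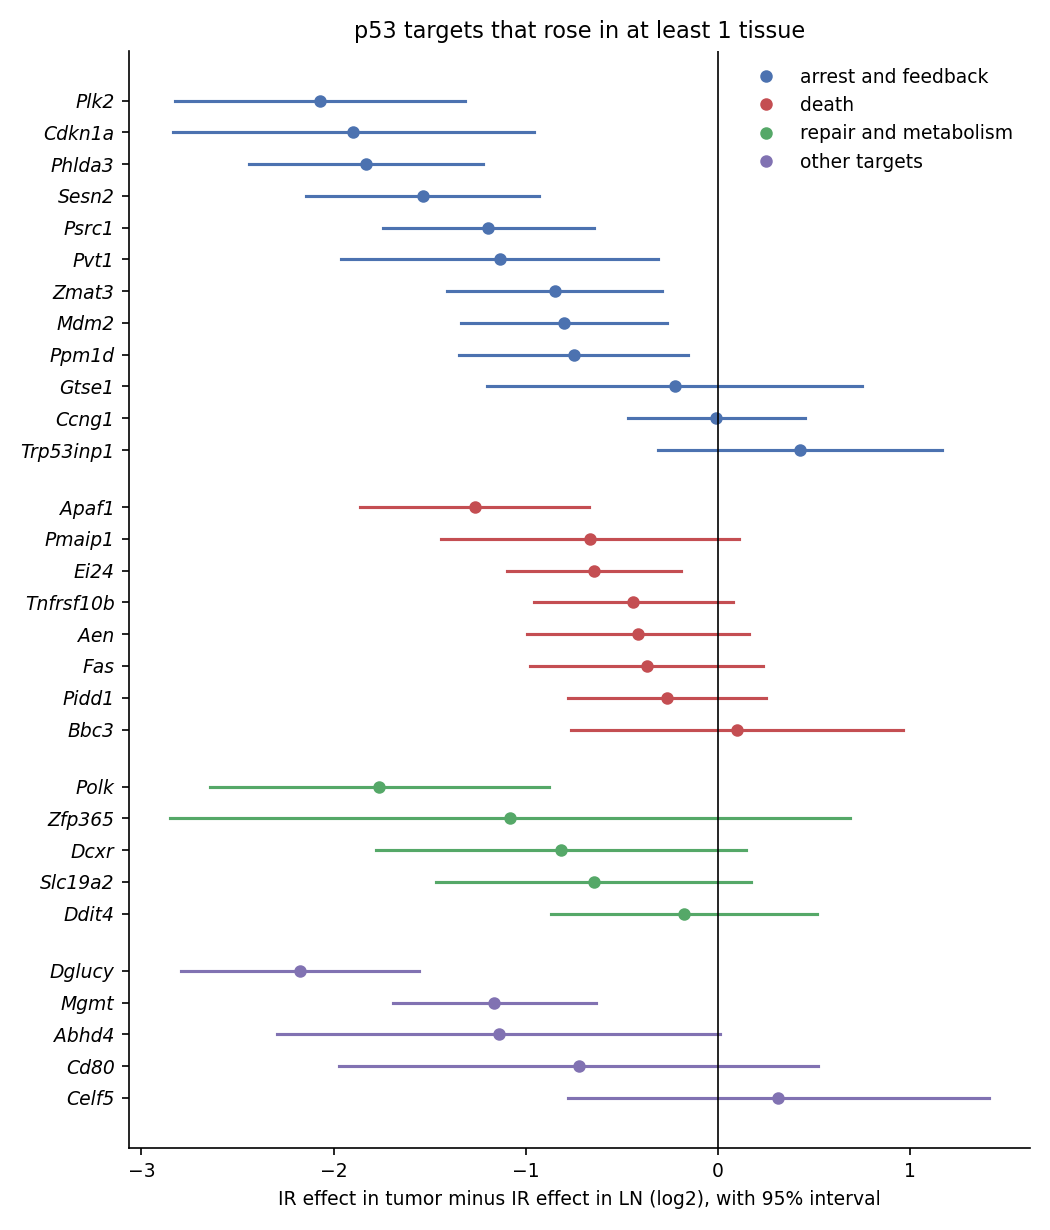
Difference in IR effect (horizontal axis, tumor minus LN, log2; dot, with the 95% interval of limma as a line) for the 30 p53 targets that rose in at least 1 tissue, coloured by role. The differences run from −2.17 (*Dglucy*) to 0.43 (*Trp53inp1*), 27 of the 30 lie below 0, and *Ccng1* sits on 0. All 30 rose in LN and 21 only there, and since the LN rise enters the difference, the side of 0 is partly set by the choice of the genes.

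The difference in IR effect is also the tissue difference with IR minus that without IR, and for the p53 targets the tissue difference turned over. Of the 58, 34 were higher in tumor than in LN without IR and 16 with IR, while over all genes the count went from 6761 to 10452. The median tissue difference of the 58 went from 0.07 to −0.38 (all genes −0.09 to 0.06). At the adjusted threshold 10 were higher in tumor and 3 lower without IR. Of all 18193 genes, 819 were higher and 189 lower without IR (5.54% differed). With IR 4 of the 58 were higher and 11 lower, against 873 higher and 364 lower of all genes (6.8% differed). These counts share arrays with those of the IR effects and are not a separate result.

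Among the layouts of the members were these 3. In the first, the tumor level without IR was already raised and the tissue difference closed: *Cdkn1a* went from 2.12 above LN (adjusted p = 0.00689) to 0.23 above (adjusted p = 0.694) and *Plk2* from 1.76 above (adjusted p = 0.0061) to −0.31 (adjusted p = 0.473). In the second, the tissues began level and a difference opened. *Dglucy* went from 0.07 to −2.10 (adjusted p = 0.0013), *Sesn2* from 0.06 to −1.47 (adjusted p = 0.00487) and *Mgmt* from −0.35 to −1.52 (adjusted p = 0.00262). *Psrc1*, *Apaf1* and *Zmat3* reached −1.01, −1.05 and −1.10 with IR, each with an adjusted p from 0.0115 to 0.0168. In the third, tumor stayed on the same side of LN by more than 1 log2 unit without and with IR. *Fas* and *Trp53inp1* stayed below LN and *Sulf2*, a sulfatase of the cell surface, above it, though the tissue difference of *Sulf2* narrowed from 3.12 to 2.19. Others fitted none of these. *Phlda3* went from 1.16 above LN to −0.67 and *Polk* from 0.91 to −0.85, while *Ccng1* stood at −0.16 and −0.17. A smaller rise in tumor was therefore seen both with and without a raised level before IR.

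**Figure D3:**
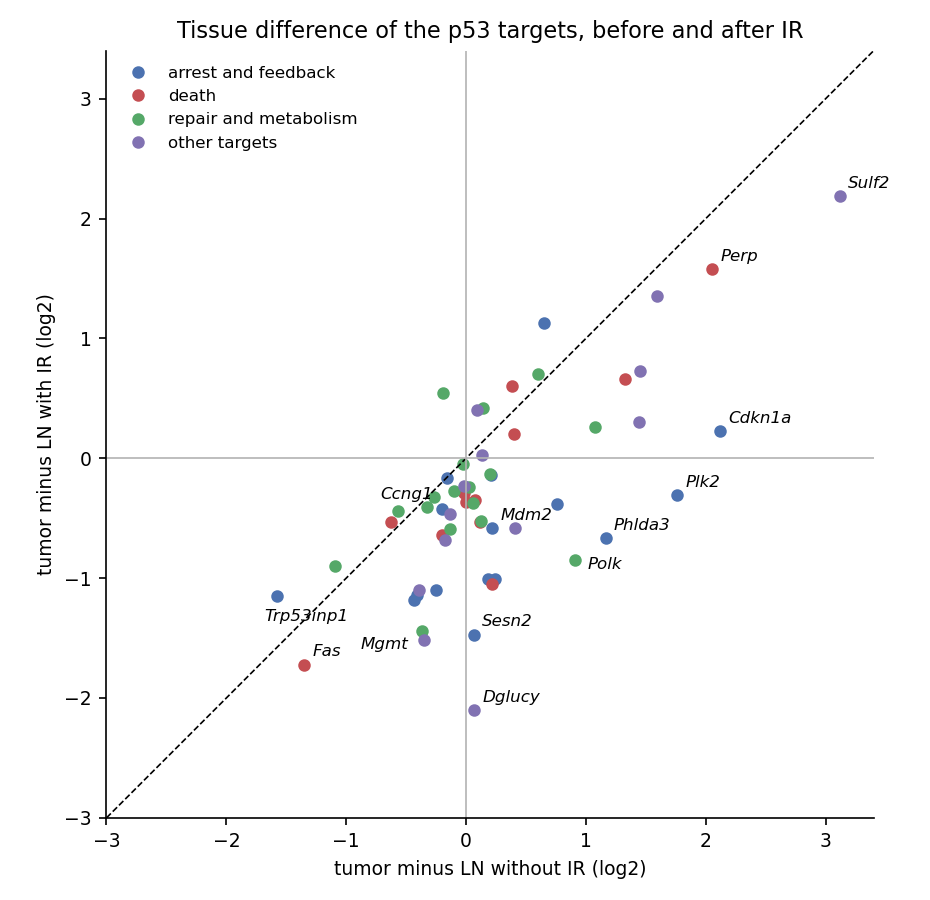
Tissue difference (tumor minus LN, log2) without IR on the horizontal axis and with IR on the vertical axis for the 58 measured p53 targets, coloured by role. On the dashed line the IR effect is equal in both tissues; 48 genes lie under it, and *Cdkn1a* and *Plk2* lie far to the right while *Dglucy* and *Sesn2* lie straight below the middle.

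On un-logged intensities the picture was less even. There, 44 of 58 targets had a difference in IR effect below 0, that is a smaller gain or a larger loss in tumor, and 10 changed sign between the scales. *Cdkn1a* gained 3232 intensity units in LN and 2933 in tumor, so that its increments differed by −299 units although its fold changes differed by −1.90 on the log2 scale. *Dglucy* (2159 and 116 units) and *Sesn2* (2047 and 536 units) differed on both scales. *Ccng1* gained 6350 and 5626 units. *Trp53inp1*, with a positive difference on the log2 scale, gained less in tumor on this scale (3232 and 1739 units), whereas *Pmaip1* gained more (932 and 1265 units).

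The immediate early genes formed the list with the lowest median among the response lists other than the p53 lists. Of 24 measured, 4 rose in LN (*Atf3*, *Fosb*, *Dusp5* and *Zfp36*, background 0.786% of all genes), 0 rose in tumor and 0 fell. The difference lay below 0 for 22 (34.2% of all genes) and the median was −0.72. At an unadjusted p under 0.05, 8 lay below 0 (2.42% of all genes) and 0 above (3.21%). The median IR effect was 0.79 in LN and 0.12 in tumor, and the tumor level without IR was already higher by a median of 0.87. *Atf3*, a stress-induced transcription factor, stood at 6.90 and 6.40 in LN without IR and 9.10 and 8.23 with IR, and at 9.53 and 10.03 and then 9.93 and 10.16 in tumor. Even with IR the LN arrays stayed below every tumor array, and the difference was −1.75 (95% interval −2.84 to −0.65, adjusted p = 0.758). *Fosb*, an AP-1 subunit, had −1.54 (−2.46 to −0.62), *Dusp5*, a phosphatase that switches ERK off, −1.39 (−2.21 to −0.57) and *Zfp36*, which destabilizes inflammatory mRNAs, −1.05 (−1.83 to −0.28). The 2 genes above 0 were *Egr2* (0.49, −1.03 to 2.00) and *Klf4* (0.32, −1.22 to 1.87). Both tumor groups were digested with enzymes and neither LN group was, so dissociation and tissue cannot be told apart in these levels.

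*Crem* and *Fosl2*, relatives of these genes outside the list, had 2 of the lowest differences of any gene. *Crem*, whose products include the cAMP-induced repressor ICER, stood at 7.80 and 7.55 in LN without IR and 10.62 and 10.56 with IR, and at 9.37 and 9.39 and then 9.83 and 9.34 in tumor. The LN arrays passed from below to above all tumor arrays, while the tumor groups overlapped. The difference was −2.71 (95% interval −3.36 to −2.06), and a further probe set of *Crem* gave −2.92 (adjusted p = 0.123), whereas its 2 dimmest probe sets gave 0.09 and 0.01. *Fosl2*, an AP-1 subunit, went from 7.70 and 7.28 to 10.22 and 10.25 in LN and from 9.76 and 9.89 to 10.35 and 10.58 in tumor (difference −2.10, −2.71 to −1.49, adjusted p = 0.316). After IR the LN arrays lay between the tumor levels without and with IR.

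Other genes with the lowest differences began level. *Agrn*, the extracellular matrix protein agrin, went from 6.59 and 7.27 to 9.39 and 9.89 in LN and from 7.18 and 7.13 to 7.74 and 7.50 in tumor (difference −2.24, −3.13 to −1.36), though its dimmer probe set gave −0.49. *Ldhb*, a subunit of lactate dehydrogenase, went from 8.64 on both arrays to 11.42 and 10.84 in LN and from 8.26 and 8.54 to 8.91 and 8.63 in tumor (difference −2.12, −2.87 to −1.37). For both genes only the LN arrays with IR stood apart. *Tmem35a*, a membrane protein, and *Acot1*, an acyl-CoA thioesterase, had −2.02 (−2.49 to −1.56) and −1.94 (−2.57 to −1.30), and their levels outside LN with IR were under the lower quartile of the arrays. *Bcl2l11*, which encodes the proapoptotic protein Bim, stood at 11.26 and 11.22 and then 12.27 and 12.77 in LN, and at 12.29 and 12.01 and then 12.23 and 12.28 in tumor. Bim transcript thus rose in LN to the level at which tumor T cells already stood, with a difference of −1.18 (−1.84 to −0.51), and the other 4 probe sets gave −1.33 to −1.67. *Icam1*, an adhesion molecule induced by NF-kB, rose by 1.03 in LN and stood at −0.01 in tumor (difference −1.04, −1.56 to −0.51), and *Cd69*, an early activation and retention molecule, had −0.69 (−1.28 to −0.10).

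Of the 48 genes that fell in LN (0.264%), all 48 had a difference above 0, and of the 143 that rose, 134 had one below 0. Since a large LN effect enters the difference itself, these counts are partly set by the choice of the genes. *Dtx1*, a regulator of Notch signaling, went from 10.05 and 10.61 to 8.32 and 7.47 in LN and from 6.10 and 6.37 to 6.01 and 5.71 in tumor, where it was low throughout (difference 2.06, 95% interval 1.01 to 3.11). *Ifitm1*, an interferon-induced membrane protein, fell in LN by 1.86 and had a difference of 1.63 (0.65 to 2.61). *Rcn1*, a calcium-binding protein of the endoplasmic reticulum, went from 9.13 and 9.06 to 7.71 and 7.58 in LN and from 10.36 and 10.15 to 10.02 and 10.01 in tumor (difference 1.21, 0.73 to 1.70). *Tbx21*, which encodes the effector regulator T-bet, fell by 1.12 in LN and stood at −0.11 in tumor (difference 1.01, 0.28 to 1.74). The adhesion molecule *Cdh1* (1.55, 0.41 to 2.70), the noncoding RNA *Lockd* (1.60, 0.20 to 2.99), the glycosyltransferase *B3gnt5* (1.24, 0.71 to 1.77) and *A530021J07Rik*, an uncharacterized transcript under the lower quartile on every array (1.40, 0.85 to 1.95), also fell in LN.

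A few genes were higher with IR in tumor. *Tnn*, the matrix protein tenascin N, lay between 7.94 and 8.11 on the 6 other arrays and at 9.53 and 9.66 in tumor with IR. It rose by 1.57 in tumor (adjusted p = 0.0301) and its effect in LN was −0.04, a difference of 1.61 (95% interval 1.14 to 2.09, adjusted p = 0.316). *Id3*, an inhibitor of E-protein transcription factors, had IR effects of opposite sign, neither of which passed: 8.72 and 9.45 to 8.01 and 7.90 in LN, and 6.97 and 6.91 to 7.62 and 7.66 in tumor. The tissues were 2.14 apart without IR and 0.31 apart with it, both with LN the higher, and the difference was 1.83 (1.05 to 2.61, adjusted p = 0.591). *Cilp*, a cartilage matrix protein, had 1.31 (0.73 to 1.89) and *Tmem14a*, a mitochondrial membrane protein, 1.23 (0.69 to 1.78), though outside tumor with IR their levels (4.72 to 5.44 and 4.61 to 5.27) lay under or within the range of the arrays' lower quartiles, so these differences have no exact size. The fibroblast markers, of which 14 of 16 had a difference above 0 (median 0.48), had array means of 6.24 to 6.58 in LN, 8.56 and 8.70 in tumor without IR, and 8.92 and 8.99 with IR, and their part in the values of the matrix genes *Tnn* and *Cilp* was not tested.

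Cell cycle lists leaned above 0, with LN arrays that were uneven. All 27 mitosis and G2/M genes lay above 0 (median 0.54) and 26 of 29 DNA replication genes did (median 0.58), while none reached an unadjusted p under 0.05. Of all 18193 genes, 11966 lay above 0. Mitosis genes had array means of 10.01 and 8.93 in LN without IR, 9.64 and 7.87 in LN with IR, 9.63 and 9.73 in tumor without IR, and 9.53 and 9.60 in tumor with IR. The tumor arrays were even and the LN arrays were not. The medians from replicate 1 and replicate 2 were 0.32 and 0.81 for mitosis and 0.29 and 0.91 for replication, and 19 of 27 and 22 of 29 genes lay above 0 for both. Without LN Non IR replicate 1, 15 of 27 mitosis genes lay above 0 (median 0.10), against 11548 of all genes. Without LN IR replicate 2, 11 of 27 mitosis genes lay above 0 (median −0.26) and 15 of 29 replication genes did (median 0.01). Over all genes 10642 lay above 0 in that setting. *Mcm10*, which loads the replicative helicase's partners, showed it: 9.80 and 8.67 became 8.94 and 6.28 in LN, 8.80 and 8.84 became 9.43 and 9.16 in tumor, and the difference of 2.09 ran from −0.50 to 4.69. Dimmer probe sets of *Mcm10* gave 0.24 and 1.10. *Ccnb2*, a mitotic cyclin, had 1.32 (−0.77 to 3.42). *Ung*, which removes uracil from DNA, fell in LN by 1.78 and stood lower by 1.70 in tumor with IR, where it did not pass (difference 0.08, −1.09 to 1.25).

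Genes of MYC and ribosome biogenesis also leaned above 0 (22 of 25, median 0.27, against 11966 of all 18193 genes). In LN 3 of them fell (0.264% of all genes). *Pprc1*, a coactivator of mitochondrial gene expression, fell in both tissues by like amounts (−1.35 and −1.31, difference 0.04, −0.48 to 0.55). *Polr1b*, a subunit of RNA polymerase I, and *Gnl3*, a nucleolar GTPase, fell in LN by 1.57 and 1.71 and had differences of 0.62 (−0.01 to 1.24) and 0.84 (−0.10 to 1.78). The count above 0 was 10 of 25 without LN IR replicate 2, against 10642 of all 18193 genes in that setting.

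Interferon-response genes lay below 0 in 25 of 27 (median −0.34, against 34.2% of all genes below 0), with none that rose or fell in either tissue. *Oasl2*, an antiviral protein, had the lowest difference, −1.51, with an interval from −3.49 to 0.47. The list's array means were 8.63 and 9.16 in LN without IR, 9.29 and 9.21 in LN with IR, 8.18 and 8.45 in tumor without IR, and 8.13 and 8.28 with IR. The LN arrays without IR were thus the uneven ones. Without LN Non IR replicate 1 the count below 0 was 16 of 27, against 6645 of all 18193 genes. NF-kB response genes lay below 0 in 13 of 19 (median −0.29), and in 10 of 19 without LN IR replicate 1, against 6233 of all 18193 genes there. Heat shock genes ran both ways: the inducible chaperone *Hspa1a* gave −1.41 (−2.63 to −0.18, with no exact size, since its LN levels without IR were under the lower quartile), *Hspa4l* 1.00 (0.05 to 1.96), and the list's median was 0.30. BCL2 family members had a median of −0.03, tissue residency and egress genes one of −0.02, effector genes 0.13 and DNA damage sensing and repair genes 0.15, all within 0.2 of the median over all genes. *Gzma*, which encodes granzyme A, had 1.87 with an interval from −0.99 to 4.73, as its values with IR were 8.52 and 10.80 in tumor and 10.10 and 8.12 in LN.

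Of the markers of other cells, the macrophage and monocyte list moved most. It lay below 0 in 21 of 22 (median −1.02), with array means of 10.22 and 11.02 in tumor without IR and 8.95 and 10.32 with IR, and none passed. *Mrc1*, the mannose receptor of macrophages, stood at 10.45 and 11.35 in tumor without IR and 8.38 and 10.08 with IR, and between 4.90 and 5.62 in LN. Without tumor IR replicate 1 the count was 15 of 22 and the median −0.50, against 6783 of all 18193 genes below 0. T cell identity genes had a median of 0.06, B cell genes −0.05, dendritic cell genes 0.13 and NK cell genes 0.49. CD4 and regulatory T cell genes had 0.07, and epithelial and carcinoma genes 0.34. Between replicate 1 and replicate 2 the median changed sign for T cell identity (−0.13 and 0.23), B cell (−0.13 and 0.46), dendritic cell (−0.58 and 0.48) and NK cell genes (−0.30 and 0.83). In LN without IR the array means were 7.22 and 7.99 for B cell, 8.33 and 9.02 for dendritic cell and 7.66 and 8.97 for NK cell genes.

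**Figure D4:**
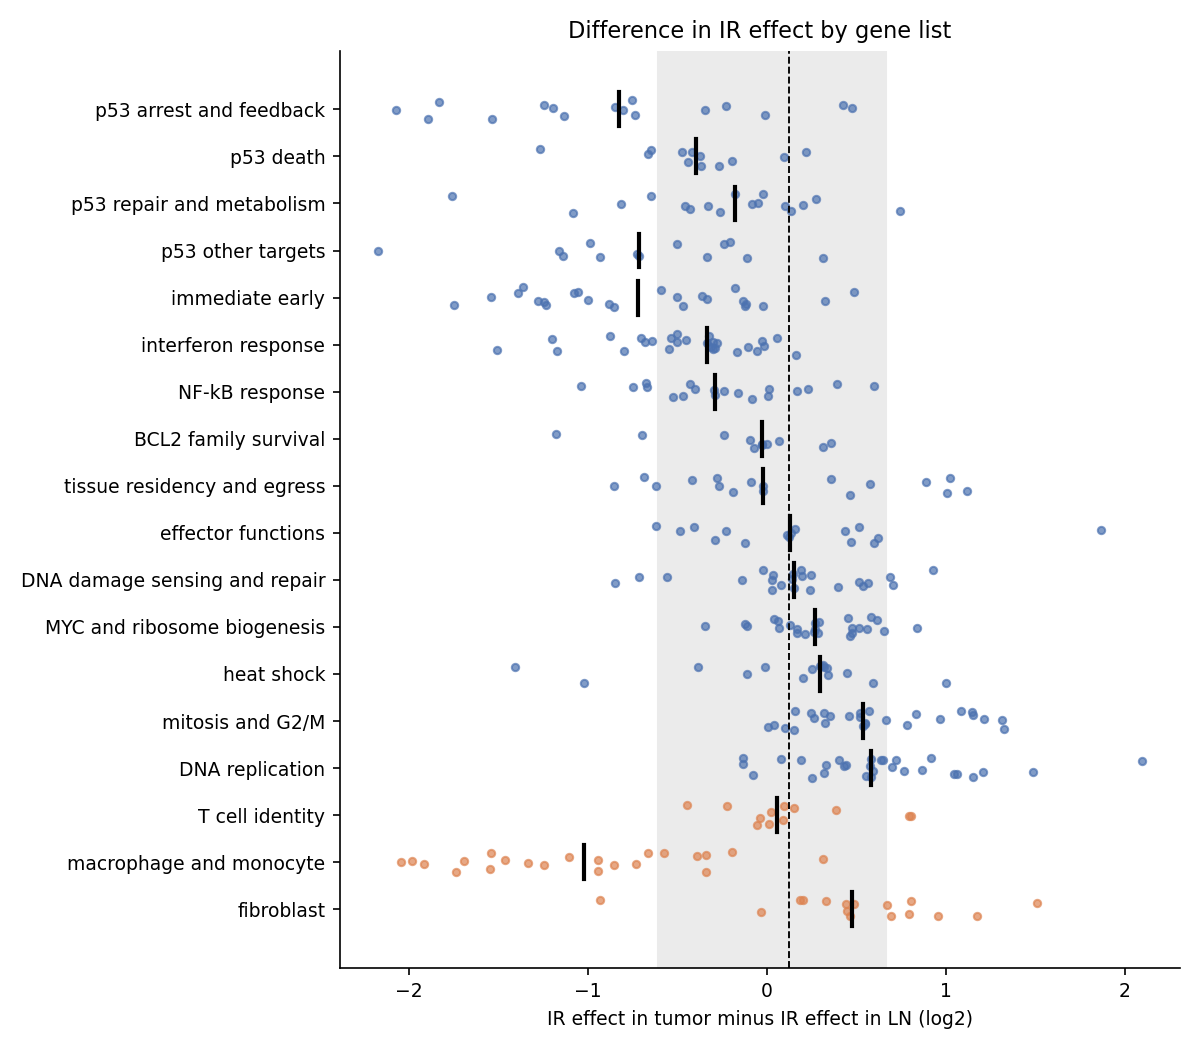
Difference in IR effect (horizontal axis, tumor minus LN, log2) of each measured member (dots) of 18 gene lists, with the list's median as a black bar; blue marks response lists and orange marks cell type markers. The dashed line is the median of all 18193 genes and the grey band spans their 5th to 95th percentile. By their medians, p53 arrest and immediate early genes lie farthest to the left among the response lists, and cell cycle lists lie to the right.

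**Figure D5:**
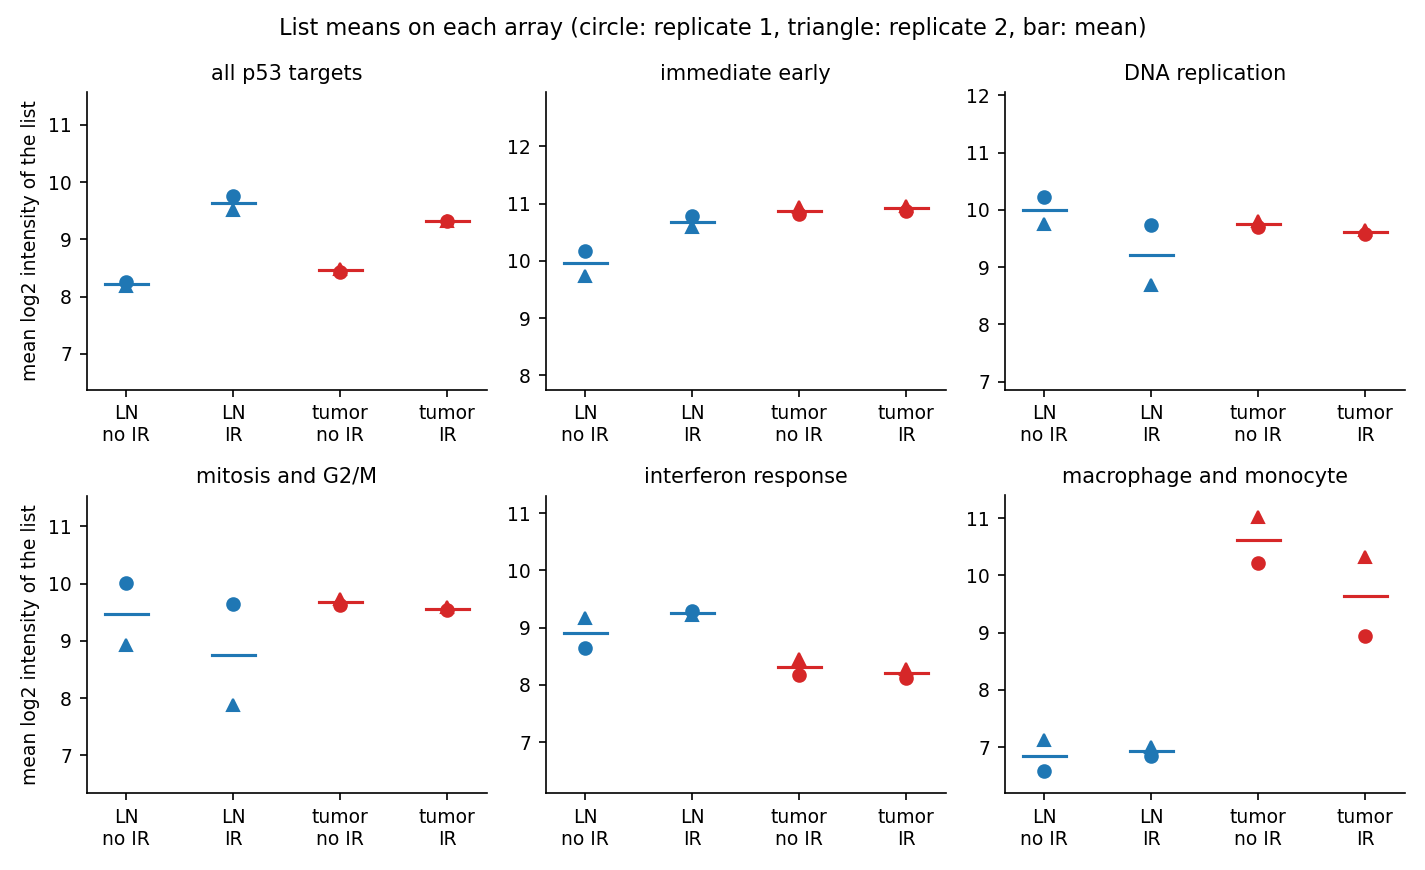
Mean log2 intensity of 6 lists on each array (vertical axis, 5.2 units high in every panel; blue LN, red tumor; circle replicate 1, triangle replicate 2; bar the mean of 2 arrays). The p53 list is higher with IR by more in LN than in tumor, the mitosis list of LN spreads from 7.87 to 10.01 while the tumor arrays stay between 9.53 and 9.73, and the macrophage list is uneven among the tumor arrays.

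Whether the difference in IR effect followed the level before IR was read across genes, which are not independent replicates, with the difference taken from 1 replicate number and the level from the other, so that no array was shared. Against the tissue difference without IR, Pearson's r was −0.21 (Spearman's rho −0.11) in one order and −0.12 (rho −0.12) in the other. With all arrays, which share those without IR, r was −0.29. For the 58 measured p53 targets r was −0.31 and −0.27. Against the LN level alone r was −0.17 and 0.16 over all genes, and against the tumor level −0.24 and 0.13, with opposite signs in the 2 orders. Among 446 genes at least 2 log2 units higher in tumor without IR on replicate 2, the median difference from replicate 1 was −0.60, and 73.5% lay below 0. In the reverse order 358 genes had a median of 0.05 with 48.9% below 0. At the low end, genes at least 2 log2 units lower in tumor without IR had a median of −0.17 (95 genes, 61.1% below 0) in the first order and 0.45 (48 genes, 29.2% below 0) in the reverse order. Genes 1 to 2 log2 units higher in tumor had medians of −0.19 (806 genes, 63.9% below 0) and −0.03 (581 genes, 52.5% below 0). For genes within 1 log2 unit between tissues the medians were 0.09 and 0.16, with 39.2% and 34.3% below 0. The correlation thus held its sign in both orders, while the medians at both ends of the tissue difference changed sign between the orders. Read against genes within 1 log2 unit, the median at the high end was lower in both orders. At the low end it was lower in the first order and higher in the reverse.

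The difference in IR effect was less repeatable than either IR effect. Computed from the replicate 1 arrays and from the replicate 2 arrays, it correlated at 0.29 over all genes (rho 0.23), with the same sign in 59.6%. The IR effect itself correlated at 0.47 in LN and 0.73 in tumor. For the 30 p53 targets that rose, chosen by effects that enter the difference, it correlated at 0.68, and their values were close for the genes described first: *Cdkn1a* −1.72 and −2.07, *Plk2* −2.0 and −2.14, *Phlda3* −1.82 and −1.84, *Sesn2* −1.50 and −1.58. *Polk* (−1.02 and −2.50) and *Apaf1* (−0.85 and −1.68) kept the sign with more spread, and *Bbc3* (−0.37 and 0.57) did not keep it.

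Genes can be chosen on 1 replicate number and read on the other. The 72 genes that were higher by at least 2 log2 units with IR on the LN arrays of replicate 1 had, on the replicate 2 arrays, a median IR effect of 1.68 in LN and 0.55 in tumor, and 58 of them lay below 0. The 68 chosen on replicate 2 had 1.71 and 0.69 on replicate 1, and 54 lay below 0. Choosing on the tumor arrays gave the same side. The 15 genes higher by at least 2 in tumor on replicate 1 had 3.31 in LN and 2.34 in tumor on replicate 2 (12 below 0), and the 12 chosen on replicate 2 had 3.61 and 2.51 on replicate 1 (8 below 0). By their medians, genes with the strongest rises thus had the larger IR effect in LN T cells whichever tissue and replicate number chose them. For the 72 and 68 genes chosen in LN, the LN effect enters the difference, so their side of 0 is partly set by the choice. With all arrays, 34.2% of all genes lay below 0. Genes chosen as lower with IR in tumor were, by their medians, lower there and not in LN. The 12 genes lower by at least 2 in tumor on replicate 1 had 0.08 in LN and −1.20 in tumor on replicate 2, and the 3 chosen on replicate 2 had 0.18 and −1.47 on replicate 1. The macrophage gene *Mrc1* (10.45 without and 8.38 with IR in tumor on replicate 1) meets the first choice. Tumor IR replicate 1 was the tumor array lowest in macrophage markers, and their part in these falls was not tested.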

How the data were processed

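The authors scanned 8 Affymetrix whole-genome mouse arrays and normalised them with RMA (background correction, quantile normalisation, summary per probe set). RMA's version: not given in the sources used here. They deposited log2 intensities, which were used as they stood. Each array is a pool of 4 mice. p-values therefore measure the spread between pools. Precision is limited by having 2 arrays a group.

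Of 45101 probe sets, 34945 name 1 gene, 932 several, 9160 none and 64 are controls. A least-squares fit of the 4 groups in limma 3.58.1 (R 4.3.3) ran over the 35877 annotated probe sets, with Benjamini-Hochberg adjustment over all of them. It was tested on simulated data. The study fitted a robust model, used here as an alternative, since with 2 arrays a group it can understate the spread. The rule for named genes took p53 targets that rose, the 6 extreme differences per side among genes changed by IR and by moderated t, and list extremes. *Btg2*, *Sulf2*, *Fosb*, *Dusp5*, *Zfp36*, *Klf4*, *Cd69*, *Tbx21*, *Ung*, *Pprc1* and *Polr1b* were chosen after their values were seen. Gene lists (421 genes, of which 394 were measured and 27 were not analysed here) and members were chosen with earlier results of these data known, so no list was tested. A promoter scan used RefSeq windows.

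Alternatives were the robust fit, array weights, a mean-variance trend, the replicate block, other thresholds and probe set rules, scaling to T cell identity genes, cyclic loess, linear intensities and leaving out each array.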

Additional observations from a re-analysis of the deposited data

Results flagged for a closer look

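On every array, the mean of the BCL2 family list was higher with IR in LN and lower with IR in tumor when arrays of the same replicate number were set side by side, with a difference of −0.15 on the log2 scale. The list's median difference over 11 genes was −0.03, and *Bcl2l11* alone had −1.18. Without it, in a comparison added after the data were seen, the mean over the other 10 genes differed by 0.02 and −0.13 with IR in LN and by −0.13 and −0.06 in tumor, a difference between the tissues of −0.04, so the opposite directions on both replicate numbers rested on that gene. The fibroblast list moved the opposite way, lower with IR in LN and higher in tumor on every array, with a difference of 0.51. These differences between the tissues were not tested as lists.

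Of the 9160 probe sets that carry no gene name here, 44 changed with IR in LN and 3 in tumor at the thresholds used for genes, and none had a difference in IR effect past them.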

How the results depend on the processing

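The count of genes with a difference in IR effect was 0 with array weights, the replicate block, the most variable probe set per gene, the dimmer 50% left out, scaling to T cell identity genes, cyclic loess, an adjusted p under 0.05, no fold limit, and probe sets in place of genes. It was 18 with the robust fit and 1 with a mean-variance trend. Leaving out 1 array gave 0 to 776, the highest when LN IR replicate 1 was left out (2 when LN IR replicate 2 was), with the lone array assumed to vary like the other groups. The main 191 genes changed by IR in LN were 504 with the robust fit, 69 with array weights, 514 scaled to T cell identity genes and 66 to 1792 without 1 array. The 18 in tumor were 177, 200, 56 and 0 to 89.

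The median of the p53 targets was −0.57 scaled to T cell identity genes, −163 units on linear intensities, and −0.59 to −0.29 without 1 array. The correlation with the tissue difference before IR averaged −0.17 over both orders and was −0.29 with all arrays. Scaled to T cell identity genes, *Bbc3* (−0.035), *Ung* (−0.054) and *Pprc1* (−0.094) turned sign. Without 1 array, *Bbc3* ran from −0.32 to 0.51, *Ccng1* from −0.093 to 0.073, *Celf5* from −0.10 to 0.73, *Ddit4* from −0.37 to 0.017, *Egr2* from −0.20 to 1.17, *Gtse1* from −0.61 to 0.15, *Klf4* from −0.27 to 0.91, *Pprc1* from −0.10 to 0.18 and *Ung* from −0.41 to 0.57. For the 69 genes named with a difference, alternatives kept the direction in 1141 cases and turned it in 22, and 47 of the former passed the threshold where the reported value did not. The causes of these shifts were not tested.

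The labels number the replicates without saying that a number marks a shared experiment. Deviations of same-numbered arrays from their group means correlated at 0.43 within each tissue and at −0.14 to 0.07 across tissues. The replicate block called 0 genes (1080 at an unadjusted p under 0.05), and a block within each tissue, chosen after seeing the data, called 0 (1773). The list counts and medians without each array or under each scaling were also added after seeing the data.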
